A study of Mus musculus with 2 samples.

Results

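The genes described are 9 transcription factor genes of the myeloid lineage, chosen by symbol from the 47643 genes of the deposited table: Spi1 (which encodes PU.1), the C/EBP genes Cebpa, Cebpb, Cebpd and Cebpe, and Gfi1, Runx1, Maf and Bhlhe40. All 9 were found, and each reached 5 CPM (unique exon reads scaled to a common library total) in at least 1 library. The study compared by RNA sequencing macrophages grown out of mouse bone marrow monocytes with lysophosphatidic acid (LPA, a small signalling lipid) with bone marrow monocytes, with 1 library of each. Both came from wild-type C57BL/6 mice aged 6 weeks. Neither library is a culture without LPA, so LPA, culture and differentiation cannot be told apart in any difference below. No source used here gives how the monocytes were isolated, how many animals were pooled or how long the culture lasted. The macrophage library held 16726342 unique exon reads and the monocyte library 12473180.

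PU.1 is the ETS factor that opens myeloid enhancers, and it works there with C/EBP factors, basic leucine zipper proteins that bind CCAAT-type sites as dimers. C/EBP alpha is needed to make granulocyte and monocyte progenitors, C/EBP beta and delta are best known from stress-induced myelopoiesis and inflamed macrophages, and C/EBP epsilon drives the late granule genes of neutrophils. Gfi1 is a zinc finger repressor that favours the neutrophil over the monocyte fate. RUNX1 is needed for the rise of blood stem cells, c-Maf sustains the programme of resident macrophages, and Bhlhe40 is a repressor of the basic helix-loop-helix class that, in mouse tissue macrophages, keeps Maf low.

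The C/EBP proteins share one DNA-binding domain, and the stretch of coding sequence that is most alike between the C/EBP genes shows how close these genes are. The sequences below are from GENCODE M21 transcripts, start in frame with the coding sequence, cover 90 bases each, and are shown because the balance between these genes differed between the libraries. Capitals mark the 64 bases that are the same in all of them.
Cebpa: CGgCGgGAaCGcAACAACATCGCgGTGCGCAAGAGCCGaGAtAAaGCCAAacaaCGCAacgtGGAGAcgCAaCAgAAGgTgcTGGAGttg
Cebpb: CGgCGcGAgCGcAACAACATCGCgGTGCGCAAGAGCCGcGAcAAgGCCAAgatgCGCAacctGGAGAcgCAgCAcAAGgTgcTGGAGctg
Cebpd: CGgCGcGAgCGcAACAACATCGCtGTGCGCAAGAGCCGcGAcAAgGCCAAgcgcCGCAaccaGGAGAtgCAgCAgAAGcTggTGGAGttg
Cebpe: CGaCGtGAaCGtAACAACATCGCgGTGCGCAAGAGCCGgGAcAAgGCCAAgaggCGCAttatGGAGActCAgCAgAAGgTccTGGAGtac
The window lies at bases 865 to 954 of the coding sequence of Cebpa, 682 to 771 of Cebpb, 589 to 678 of Cebpd and 628 to 717 of Cebpe. Identity in it ran between 78.9% (Cebpd and Cebpe) and 88.9% (Cebpb and Cebpd). Over whole transcripts the longest exact run shared by a pair was 29 bases, between Cebpa and Cebpb. In the deposited table all exon reads of every gene were classed as unique. This does not show whether reads that fit several genes were left out before counting, since the mapper's settings were not given.

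Among these factors Maf was far higher in the LPA-derived macrophages, Gfi1 and Cebpe were far lower, Bhlhe40 was lower, and Spi1 stood at nearly the same level in both libraries. Counted at 2-fold on the log2(CPM + 1) scale, 1 of 9 was higher, 5 were lower (Gfi1, Cebpe, Bhlhe40, Cebpb and Cebpd) and 3 lay within 2-fold (Spi1, Cebpa and Runx1). Among all 10407 genes at 5 CPM or more in at least 1 library, 13.8% were higher and 19.9% were lower by this rule, 33.8% in all. The median log2 ratio of the 9 was -1.10, against -0.23 over all those genes. No difference has a replicate check, since each group is 1 library, and no test was made. Intervals are exact 95% counting intervals, which do not cover the spread between animals or cultures. In bulk RNA, fewer cells of a type and less RNA per cell cannot be told apart.

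**Figure D1:**
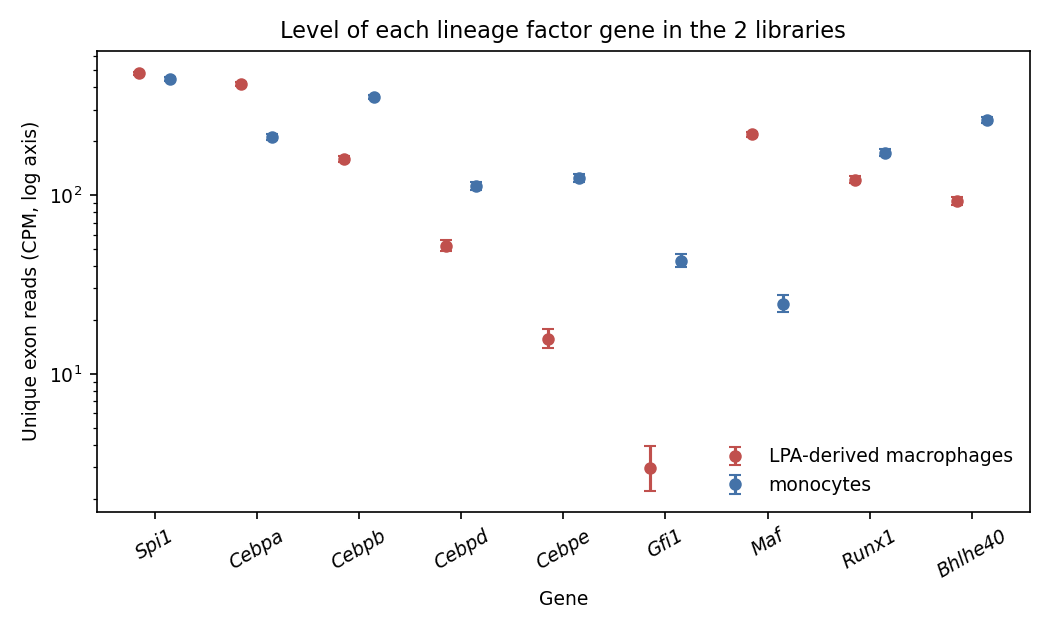
Level of each gene in CPM on a log axis, with the LPA-derived macrophages on the left of each pair and the monocytes on the right. Bars are exact 95% counting intervals. Maf stands higher in the macrophages, Gfi1 and Cebpe much lower, and Spi1 nearly level at 477.5 and 444.7 CPM.

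These counts depend on how the libraries are scaled. Centred on the median of all genes, 2 of the 9 were higher (Maf and Cebpa) and 3 lower (Gfi1, Cebpe and Bhlhe40), while Cebpb and Cebpd then lay within 2-fold. Among all genes 17.4% were higher and 14.6% lower after centring. Of all genes past 2-fold, 41.0% were higher with CPM, 54.3% after centring and 53.3% with TMM factors. Maf stayed above 2-fold and Gfi1, Cebpe and Bhlhe40 below it in the other direction under each of the 10 alternatives tried. The statements on Cebpa, Cebpb and Cebpd below are therefore also given as ratios between genes of one library, which scaling does not touch.

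**Figure D2:**
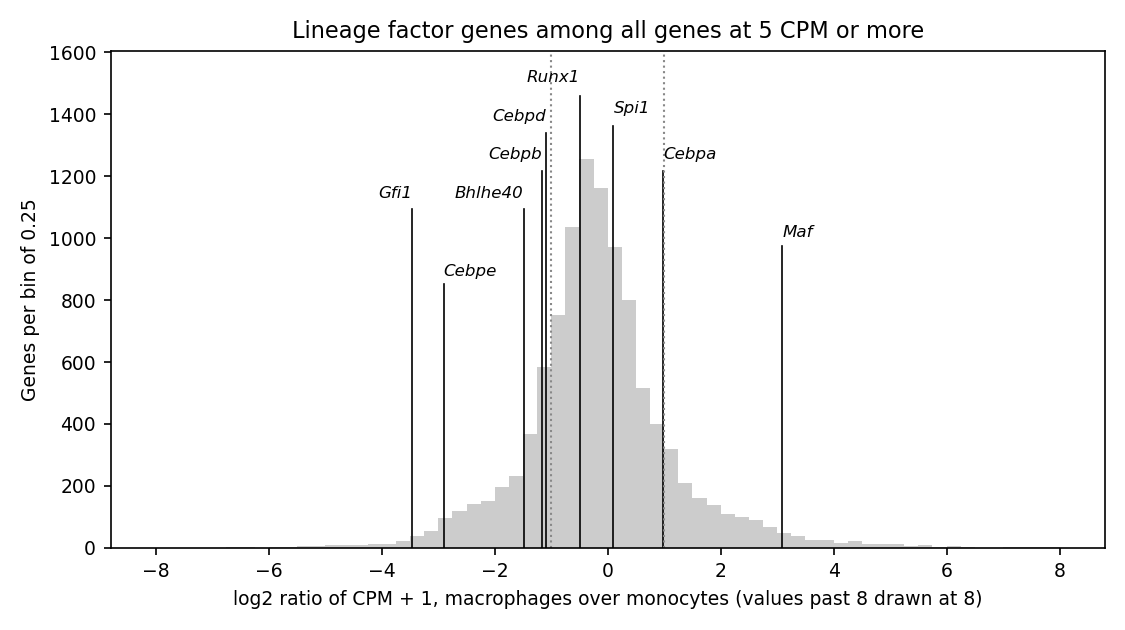
Histogram of the log2 ratio of CPM + 1, macrophages over monocytes, for the 10407 genes at 5 CPM or more, in bins of 0.25, with each lineage factor gene marked by a line. Dotted lines stand at 2-fold. Gfi1 and Cebpe lie in the lower tail, Maf in the upper tail, Spi1 and Runx1 near the middle.

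Spi1, on chromosome 2 (91082390 to 91115756, GRCm38), had 7986 exon reads in the macrophages and 5547 in the monocytes, or 477.5 and 444.7 CPM. The ratio was 1.07 (1.04 to 1.11), and it ranked as number 3705 of 10407 from the highest ratio. Per length it was the most abundant of the 9 in the macrophages, at 156 RPKM (exon reads scaled by exon length and library total, as the authors deposited them), and the second in the monocytes, at 139 RPKM. That is above 97.6% of the genes at 5 CPM or more in the macrophage library and above 96.9% of those in the monocyte library.

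The C/EBP genes did not move together. Cebpa (chromosome 7, 35119293 to 35121928) stood at 417.4 CPM in the macrophages and 211.7 CPM in the monocytes, a ratio of 1.97 (1.89 to 2.06). It missed the 2-fold line by little, and the ratio of the deposited RPKM values, 139 in the macrophages and 67.4 in the monocytes, was 2.07. In the authors' deposited table its fold change is 2.31.

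Cebpb (chromosome 2, 167688915 to 167690418) went the other way, with 158 CPM in the macrophages and 353.1 CPM in the monocytes, 2.23-fold lower (2.13 to 2.35). Cebpd (chromosome 16, 15887286 to 15888466) stood at 52.1 CPM in the macrophages and 112.6 CPM in the monocytes, 2.16-fold lower (1.98 to 2.36). The authors' deposited table gives these as -1.87 and -1.73, the minus sign meaning lower in the macrophages, so both lie within 2-fold there. The level of Cebpd is less certain, because its listed end lies before the end in GENCODE M21 at 15891031. The table classed 148 reads in the macrophages (14.5% of its gene reads) and 216 in the monocytes (13.3%) as intron reads, although its exons leave 1 base of intron.

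Cebpe (chromosome 14, 54710363 to 54712174), the late granulocyte member, had 263 exon reads in the macrophages and 1550 in the monocytes. Its level was 15.7 CPM in the macrophages and 124.3 CPM in the monocytes, 7.90-fold lower (6.93 to 9.04), and it ranked as number 219 of 10407 from the lowest ratio. Cebpg, a partner of the other C/EBP proteins that itself has no activation domain, stood at 110.5 CPM in the macrophages and 73.4 CPM in the monocytes (1.50-fold higher, 1.39 to 1.63).

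The make-up of the C/EBP transcripts therefore differed. Of the exon reads per kilobase summed over Cebpa, Cebpb, Cebpd, Cebpe and Cebpg, Cebpa took 46.3% in the macrophages and 15.3% in the monocytes, and Cebpb 30.7% in the macrophages and 44.7% in the monocytes. Cebpd took 12.9% in the macrophages and 18.2% in the monocytes, and Cebpe 3.71% in the macrophages and 19.1% in the monocytes. Per length, Cebpa was 1.51 times as abundant as Cebpb in the macrophages (1.44 to 1.58) and 0.342 times in the monocytes (0.326 to 0.359). This ratio of Cebpa to Cebpb was 4.41-fold higher in the macrophages (4.12 to 4.71), that of Cebpa to Cebpd 4.26-fold higher (3.87 to 4.70) and that of Cebpa to Cebpe 15.6-fold higher (13.6 to 18.0). Per length, Cebpb had 2.38 times the level of Cebpd in the macrophages (2.20 to 2.57) and 2.46 times in the monocytes (2.32 to 2.62). When reads were not divided by length, Cebpa took 55.4% in the macrophages and 24.2% in the monocytes, and Cebpb 21.0% in the macrophages and 40.4% in the monocytes. Cebpa led in the macrophages and Cebpb in the monocytes either way.

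**Figure D3:**
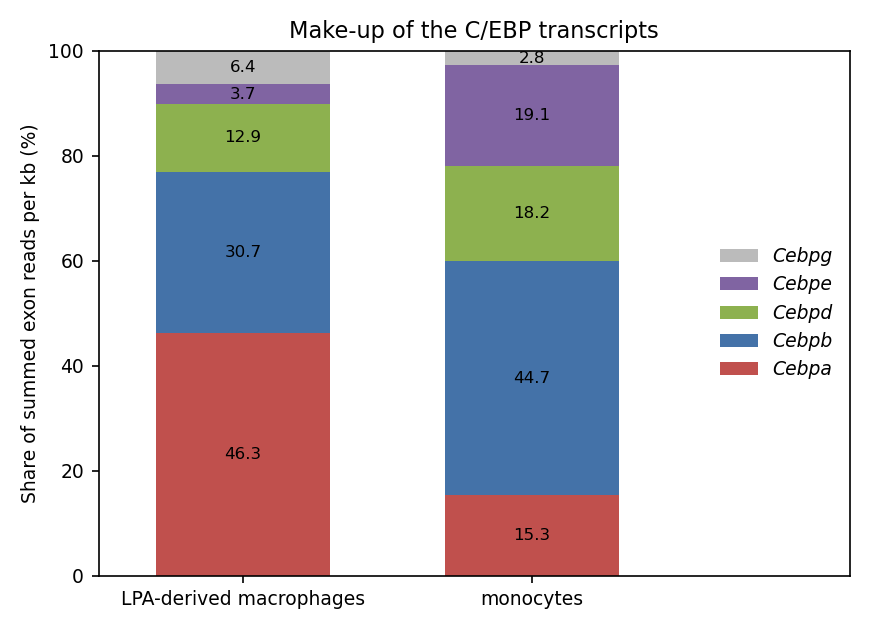
Share of each C/EBP gene in the exon reads per kilobase summed over Cebpa, Cebpb, Cebpd, Cebpe and Cebpg, in percent, with the LPA-derived macrophages on the left and the monocytes on the right. Cebpa is the largest part in the macrophages (46.3%) and Cebpb in the monocytes (44.7%).

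Gfi1 (chromosome 5, 107716657 to 107726036) had the lowest ratio of the 9. It had 50 exon reads in the macrophages and 536 in the monocytes, or 2.99 and 43.0 CPM, 14.4-fold lower (10.7 to 19.6). It was number 101 of 10407 from the lowest ratio, and the only one of the 9 below 5 CPM in the macrophage library. Spi1 exceeded Gfi1 per length 192-fold in the macrophages (146 to 259) and 12.5-fold in the monocytes (11.4 to 13.6). The 6 markers of neutrophil precursors, cells in which Gfi1 and Cebpe are active, were all lower too, with a summed level of 136 CPM in the macrophages and 10986 CPM in the monocytes, and their part in the values of Gfi1 and Cebpe was not tested. Gfi1b, the erythroid and megakaryocytic relative, had 2.63 CPM in the macrophages and 7.70 CPM in the monocytes.

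Maf (chromosome 8, 115682942 to 115707794) had the highest ratio of the 9. It had 3639 exon reads in the macrophages and 308 in the monocytes, or 217.6 and 24.7 CPM, 8.81-fold higher (7.84 to 9.93), and ranked as number 227 from the highest ratio.

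Bhlhe40 (chromosome 6, 108660629 to 108666925) stood at 92.6 CPM in the macrophages and 262.0 CPM in the monocytes, 2.83-fold lower (2.66 to 3.01). Its close relative Bhlhe41 went the other way, with 1758 exon reads in the macrophages and 28 in the monocytes, or 105.1 and 2.24 CPM, 46.8-fold higher (32.3 to 70.7). The 2 genes were thus near the same CPM in the macrophage library and far apart in the monocyte library. Per length, Maf had 0.933 times the level of Bhlhe40 in the macrophages (0.879 to 0.991) and 0.0374 times in the monocytes (0.0332 to 0.0421). The ratio of Maf to Bhlhe40 was 24.9-fold higher in the macrophages (21.8 to 28.5). Bhlhe41 was higher there by more than Maf (46.8-fold against 8.81-fold), so the ratio of Maf to Bhlhe41 was lower in the macrophages. Whether either gene acts on Maf in these cells was not tested.

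Runx1 (chromosome 16, 92601466 to 92826149) stood at 121.7 CPM in the macrophages and 172.2 CPM in the monocytes, 1.42-fold lower (1.33 to 1.50). Cbfb, the subunit that RUNX proteins need to bind DNA well, differed alike, at 135.1 CPM in the macrophages and 207.2 CPM in the monocytes. The ratio of Runx1 to Cbfb was 1.08 times that of the monocytes (0.997 to 1.18). The other RUNX genes were lower by more: Runx3 had 8.31 CPM in the macrophages and 89.1 CPM in the monocytes, 10.7-fold lower (8.98 to 12.9), and Runx2 was 3.25-fold lower (2.93 to 3.61).

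Ordered per length, the macrophage library had Spi1, Cebpa (139 RPKM), Cebpb (92.5), Cebpd (38.9), Bhlhe40 (24.9), Maf (23.3), Cebpe (11.2), Runx1 (9.06) and Gfi1 (0.811 RPKM). The counting intervals of single levels overlapped between neighbours in that order for Bhlhe40 and Maf alone, though the interval of their ratio lay below 1. The monocyte library had Cebpb (197 RPKM) before Spi1, followed by Cebpe (84.3), Cebpd (80.1), Cebpa (67.4), Bhlhe40 (67.2), Runx1 (12.2), Gfi1 (11.1) and Maf (2.52 RPKM). Intervals overlapped there for Cebpe with Cebpd, Cebpa with Bhlhe40, and Runx1 with Gfi1. RPKM divides by the summed length of all annotated exons, 11827 bases for Runx1 and 8241 for Maf, so genes with long or alternative ends read low on this scale.

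Reads in introns come mostly from unspliced RNA and are a second readout of the same genes. They could be read for 6 of the 9, since the exons listed for Cebpa, Cebpb and Cebpd leave 0, 0 and 1 bases of intron. Gfi1 had 8 intron reads in the macrophages and 121 in the monocytes, which is 20.3-fold lower (9.97 to 48.0) when scaled like the exon reads. Cebpe had 5 in the macrophages and 26 in the monocytes (6.97-fold lower, 2.64 to 23.3). Bhlhe40 had 55 in the macrophages and 163 in the monocytes (3.97-fold lower, 2.91 to 5.50), while Maf had 259 in the macrophages and 38 in the monocytes (5.08-fold higher, 3.61 to 7.35). The direction was that of the exon reads in each of these. Over the whole library, intron reads made up 9.90% of gene reads in the macrophages and 14.1% in the monocytes. Intron ratios scaled by exon reads therefore lean low for the macrophages in general, in the genes named here and in Runx1 and Spi1 below.

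The intron ratio lay below the exon ratio in all of the 6 genes but Cebpe. For Runx1, Spi1 and Maf the 2 intervals did not overlap. Runx1 had 1029 intron reads in the macrophages and 1964 in the monocytes, 2.56-fold lower (2.37 to 2.76) where its exon reads were 1.42-fold lower. Intron reads made up 33.6% of its gene reads in the macrophages (31.9 to 35.3) and 47.8% in the monocytes (46.2 to 49.3). Spi1 had 954 intron reads in the macrophages and 1013 in the monocytes, 1.42-fold lower (1.30 to 1.56), and an intron share of 10.7% in the macrophages and 15.4% in the monocytes. A lower intron share in the macrophages was general: over 9161 genes with at least 20 gene reads in each library and 20 intron reads in all, the median was 12.3% in the macrophages and 16.6% in the monocytes, and 70.7% of them had the lower share in the macrophages.

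Maf also differed in reads that span an exon junction, which its long but not its single-exon form can give. It had 72 such reads among 3639 exon reads in the macrophages, or 1.98% (1.55 to 2.48). In the monocytes it had 0 of 308, which allows a share of up to 0.974% by the floor of 3 reads and has a Clopper-Pearson upper limit of 1.19%. This was noticed after the values were seen and rests on few monocyte reads.

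**Figure D4:**
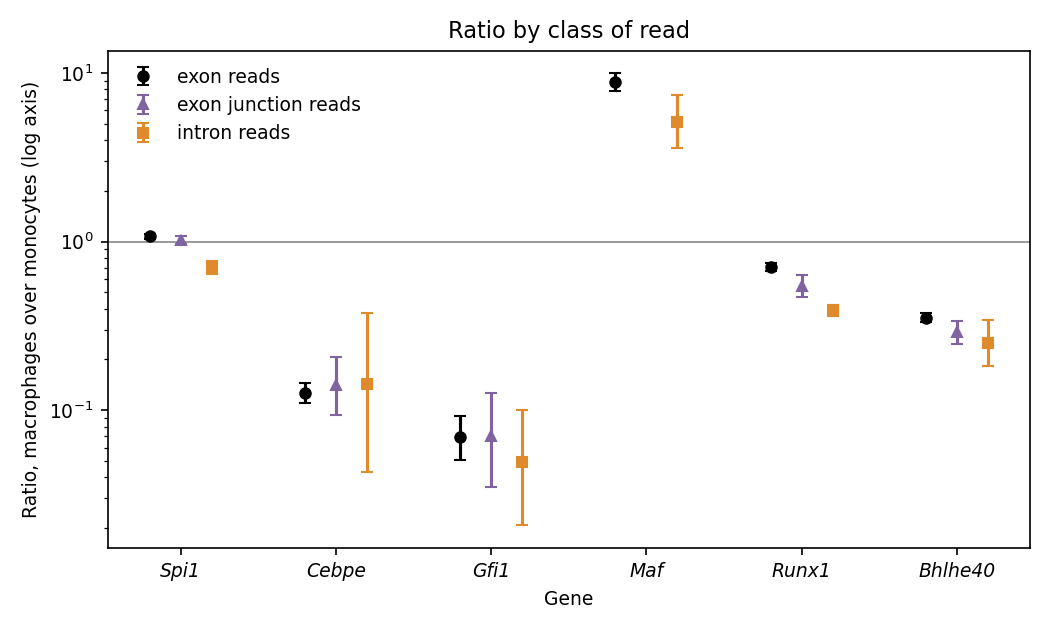
Ratio of macrophages over monocytes, on a log axis, for exon reads, exon junction reads and intron reads of the 6 genes with introns, each scaled by the exon reads of the library. Bars are exact 95% counting intervals. All but Cebpe lie lower in intron than in exon reads, with separate intervals for Runx1, Spi1 and Maf. Maf has no junction ratio because the monocyte library held 0 junction reads for it.

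Promoter sequences, 250 bases before to 50 after a start site, were found in RefSeq (GRCm38.p6) for 4 of the 9 genes: Cebpa, Cebpb, Gfi1 and Runx1, the last 2 with 2 promoters each. They were searched on both strands for a PU.1 motif (GAGGAAGT), a C/EBP palindrome (TTGCGCAA), a RUNX motif (TGTGGT) and an E-box that Bhlhe40 can bind (CACGTG). These letters occur in 3.20%, 0.183%, 16.8% and 7.15% of 32851 promoters. Of the 6 promoters of these genes, the distal promoter of Runx1 alone held any, and it is shown for that reason, with the motifs in capitals.
Runx1 distal promoter, chr16:92826025-92826324, minus strand: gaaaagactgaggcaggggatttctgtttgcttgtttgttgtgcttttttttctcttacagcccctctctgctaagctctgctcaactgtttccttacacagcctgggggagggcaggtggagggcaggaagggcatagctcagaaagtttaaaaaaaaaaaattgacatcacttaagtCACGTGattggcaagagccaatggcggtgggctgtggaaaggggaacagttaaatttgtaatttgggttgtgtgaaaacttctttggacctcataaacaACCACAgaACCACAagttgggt
The E-box begins 71 bases before the start site, and 2 RUNX motifs, read on the other strand as ACCACA, begin 28 and 36 bases after it. A match of letters is a description and not a binding site, and the reads of the table are not split by promoter.

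Family members, cofactors and known targets of these factors were first counted together. Across 12 lists of family members, cofactors and known targets, outside the 9 genes, 131 of 145 genes reached 5 CPM in at least 1 library, of which 25 were at least 2-fold higher and 56 at least 2-fold lower (median log2 ratio -0.48), or 30 and 44 after centring. These stand beside the 13.8% higher and 19.9% lower of all genes, or 17.4% and 14.6% after centring. The same shares of all genes stand beside each list below. Of 9 CCAAT-type and PAR bZIP genes and Tribbles genes at that level, 2 were higher and 5 lower, or 3 and 4 after centring. Before centring the higher ones were the PAR factors Tef (3.87-fold) and Dbp (4.99-fold). Nfil3, a repressor at the same sites, was 6.10-fold lower (29.2 CPM in the macrophages, 178.2 CPM in the monocytes), and Trib1, which leads C/EBP alpha to degradation, was 4.64-fold lower (76.5 CPM in the macrophages, 355.1 CPM in the monocytes).

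Of 17 ETS genes other than Spi1, 1 was higher and 7 were lower, or 2 and 4 after centring on the median of all genes. Etv5 was the higher one, at 46.8 CPM in the macrophages and 2.97 CPM in the monocytes (15.8-fold, 11.3 to 22.5). Ets2 was 6.31-fold, Erg 5.62-fold and Spib, the closest relative of Spi1, 4.37-fold lower, Spib with 35 reads in the macrophages and 114 in the monocytes. Of 10 RUNX partner genes 4 were lower and none higher, among them Cbfa2t3 (6.93-fold) and Tle3 (2.38-fold).

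Of 6 genes of Gfi1 cofactors 1 was lower, Hdac1 (2.20-fold), and none after centring. Hdac2, Zbtb17 and Rcor1 lay within 2-fold. Of 8 MAF, BACH and CNC genes 4 were lower and none higher, or 3 and 1 after centring. Maff was 8.03-fold, Mafk 3.47-fold, Bach2 2.77-fold and Nfe2 2.68-fold lower. Of 9 genes in the list of Bhlhe41 and the circadian clock, 4 were lower (3 after centring) and Bhlhe41 was higher. Per1 was 10.1-fold, Per2 7.78-fold and Cry1 3.08-fold lower, while the core activators Clock and Arntl lay within 2-fold. The hour at which the cells were taken was not given in the sources used here.

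Of 12 factors of other lineages 8 were lower (7 after centring) and none was higher. Myb, the factor of progenitors, was 25.5-fold lower, Bcl11a 22.5-fold, and Pax5, the B cell factor, 23.1-fold lower on 4 reads in the macrophages and 69 in the monocytes. The erythroid factor Klf1 had 0 reads in the macrophages and 65 in the monocytes, at least 29.1-fold lower against a floor of 3 reads in the macrophage library. Irf8, the interferon regulatory factor that pairs with PU.1 in monocytes, stood at 100.6 CPM in the macrophages and 256.0 CPM in the monocytes. Its level is uncertain, because 87.5% of its exon reads in the macrophages and 90.4% in the monocytes spanned a junction and none lay in an intron.

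**Figure D5:**
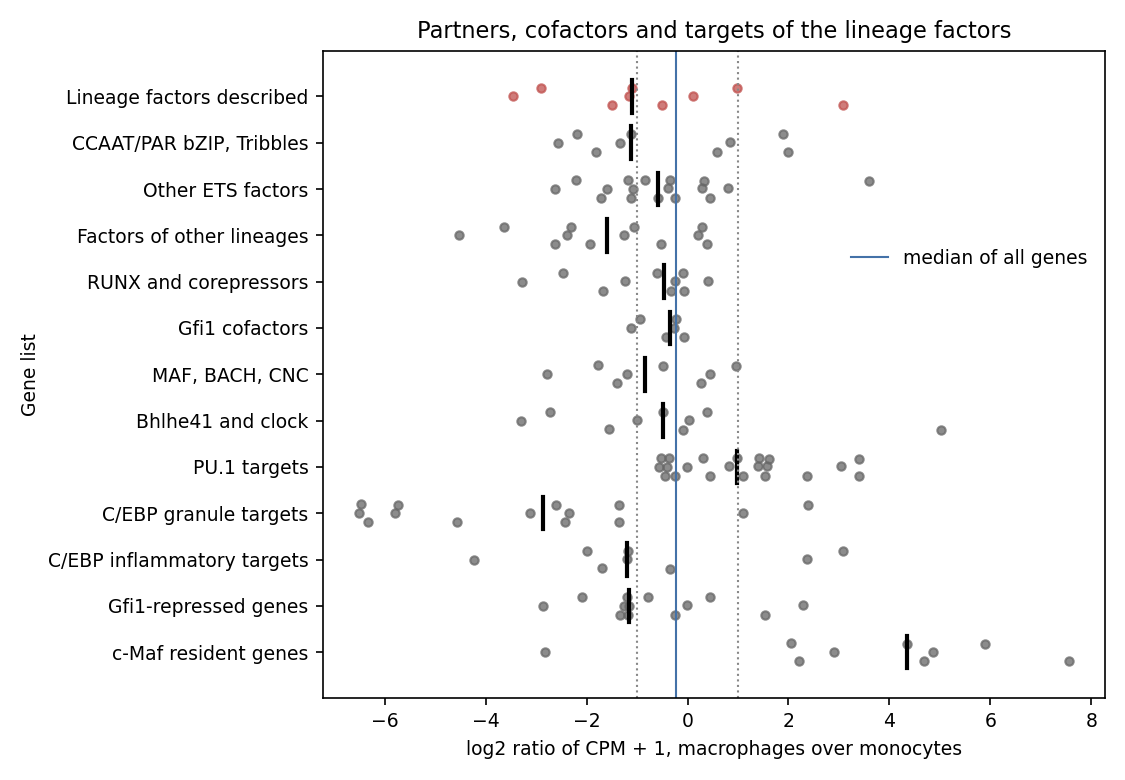
log2 ratio of CPM + 1, macrophages over monocytes, for each gene at 5 CPM or more in the lists named on the vertical axis; some genes stand in more than 1 list. Bars are list medians, the blue line is the median of all genes (-0.23) and dotted lines stand at 2-fold. The resident macrophage list lies to the right and the granule list to the left.

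Known targets were counted in the same way, beside the same 13.8% higher and 19.9% lower of all genes (17.4% and 14.6% after centring). Of 21 PU.1 target genes, 10 were higher in the macrophages (12 after centring) and none was lower (median log2 ratio 0.98). The largest ratios were those of Adgre1, which encodes F4/80 (10.6-fold), Ctss, the cathepsin S gene (10.5-fold), Cd68 (8.24-fold) and the scavenger receptor gene Msr1 (5.21-fold). Of the 10 higher ones, 4 are also among the macrophage markers below, Adgre1, Cd68, Csf1r and Fcgr1. Of 14 granulocyte genes that depend on C/EBP alpha or epsilon, 12 were lower and 2 higher, Csf3r and Mmp8 (median -2.87). Ctsg was 100.5-fold, Mpo 90.4-fold, Prtn3 83.9-fold and Fcnb 66.2-fold lower, and of the 14 genes 5 are also neutrophil precursor markers and 4 neutrophil markers.

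Of 8 C/EBP beta or delta target genes at 5 CPM or more, 2 were higher (Pparg, 9.44-fold, and Msr1) and 5 were lower (3 after centring), among them the chemokine genes Ccl2 (22.8-fold) and Ccl3 (4.01-fold). The other 6 of that list, Nos2, Csf3, Il12b, Il10, Arg1 and Saa3, were under 5 CPM in both libraries. Of 13 genes that Gfi1 represses, 2 were higher and 7 lower (4 after centring, median -1.17 before it). The 2 higher ones are near the share of higher genes among all genes (13.8%, or 17.4% after centring). Egr2 was 5.07-fold and Csf1r 2.92-fold higher, and Hoxa9 was 7.87-fold and Id1 7.71-fold lower. Csf1r is also a macrophage marker. Of 9 resident macrophage genes that depend on c-Maf, 8 were higher and 1 was lower (median 4.35). Stab1 stood at 825.8 CPM in the macrophages and 3.37 CPM in the monocytes (245-fold, 181 to 340.4), and Folr2 had 1293 reads in the macrophages and 4 in the monocytes (241-fold, 93.9 to 886). Gas6 was 34.1-fold and C1qb 29.7-fold higher, and Cd163 was the gene that was lower; Il10, Lyve1 and Timd4 were under 5 CPM. In that list C1qa is also a macrophage marker and Pf4 a megakaryocyte marker.

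Markers of other cells also differed between the 2 libraries. Of the neutrophil precursor markers named with Gfi1, none was at 0 in either library. Markers of later neutrophils summed to 6125 CPM in the macrophages and 18718 CPM in the monocytes; 5 of 8 were lower and 3 were higher, Cxcr2, Mmp8 and Retnlg. Monocyte markers were lower in 7 of 7 cases (374.3 CPM summed in the macrophages, 5992 CPM in the monocytes) and macrophage markers higher in 9 of 9 (37173 CPM summed in the macrophages, 1366 CPM in the monocytes), in the direction of Maf. Erythroid markers were lower in 6 of 6 cases, with 4 at 0 in the macrophages, and megakaryocyte markers were higher in 4 of 4 (406.3 CPM in the macrophages, 92.0 CPM in the monocytes). Eosinophil, basophil and mast cell markers were lower in 4 of 6. B cell markers were lower in 3 of the 4 at 5 CPM or more. Only 3 of 5 dendritic cell markers reached 5 CPM in a library, and all 3 were lower. Among 4 T and NK cell markers Nkg7 alone reached 5 CPM in a library, and it was lower. Stromal and endothelial markers were lower in 3 of the 5 at that level and higher in 1. The part of these cells in the results was not tested. Among all genes 13.8% were higher and 19.9% lower by this rule, or 17.4% and 14.6% after centring. Some of the lower markers lay at the 2-fold line. These were Col1a1, Col1a2 and Pecam1 (log2 ratios -1.04, -1.01 and -1.01) and the monocyte marker Cx3cr1 (-1.03). Centring brings each of them within 2-fold.

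Other genes overlap some of the 9 in the deposited table, and the labels and headers say nothing of strand in the counting. Tmem189 (chromosome 2, 167642608 to 167689822) overlaps Cebpb and had 665 exon reads in the macrophages and 232 in the monocytes, against 2643 in the macrophages and 4404 in the monocytes for Cebpb. A430072P03Rik overlaps Gfi1, with 1 exon read in the macrophages and 27 in the monocytes. The features that overlap Cebpa, Maf, Runx1 and Bhlhe40 had at most 5 exon reads in a library, and none overlaps Spi1, Cebpd or Cebpe.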

How the data were processed

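The authors deposited 1 table with 1 column set per library. Per the file headers it holds counts of unique exon, intron, gene and exon junction reads, and RPKM values. The authors' normalized signal has the same sorted values in both libraries, and their signed fold change (a score) is the ratio of these values; their FDR-corrected p-value, per the file headers from Baggerley's test of 1 library against 1, is not used. Exon lengths are other values from the deposited table. A further 25 per-library columns were not used. The mapper, its settings and the use of strand were not given in the labels or headers. The build was mm9, per the submitters' processing notes, but of 47224 gene identifiers found in GENCODE M21 (GRCm38), 86.3% had its exact position, 7 of the 9 members among them. Starts were turned to 1-based.

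Counts were scaled to CPM by the library's unique exon reads. A gene counted at 5 CPM in at least 1 library (83.6 reads in macrophages, 62.4 in monocytes), and as higher or lower at 2-fold on log2(CPM + 1). Ratios are of plain CPM, with exact conditional 95% intervals; RPKM and shares have exact Poisson or Clopper-Pearson intervals, and ratios of ratios the conditional odds ratio. These and the floor of 3 reads cover counting error only. Python 3.11.15, scipy 1.17.1 and edgeR 4.0.16 (TMM factors only) were used. The calls were also tried on simulated counts with counting error alone and no shift in scaling. That cannot show how the calls fare with spread between animals or cultures. Named genes are all 9 members, Spib, Irf8, Cebpg and Bhlhe41, and up to 4 genes of each list with the largest ratios; 1 further gene of the rule and lists is not reported here, and others named as counts or exceptions were chosen after their values were seen. With 2 libraries no gene can be named for a like pattern, so ranks are given. The members and lists were chosen with earlier results of these data known. A planned comparison of protein sequences was replaced by coding sequence, because no protein table was used here.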

Additional observations from a re-analysis of the deposited data

How the results depend on the processing

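Which C/EBP genes passed 2-fold depended on the scaling. The number of the 9 genes higher in the macrophages was 1 and became 2, with Cebpa beside Maf, without the 20 highest genes, centred on the median, with TMM factors, with gene reads, with the authors' deposited fold change and, chosen after seeing the data, with the totals behind the authors' RPKM. The number lower was 5 and became 3, without Cebpb and Cebpd, without the 20 highest genes, centred on the median, with TMM factors and with the authors' deposited fold change. Of genes past 2-fold, 41.0% were higher, against 54.3% centred and 53.3% with TMM; centring shifts every log2 ratio by 0.23. Pseudocounts of 0.1 and 5, no floor and a floor of 25 CPM left both counts as they were. The log2 ratio of Cebpa ran between 0.96 and 1.21, of Cebpb between -1.16 and -0.90, of Cebpd between -1.11 and -0.79, of Gfi1 between -3.80 and -2.59 and of Maf between 2.91 and 3.34; no member changed sign.

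The share of Cebpa in the macrophages was 55.4% from CPM, 53.4% from the authors' normalized values and 49.4% without Cebpg. That of Cebpb there was 21.0%, 21.1% and 32.8%. In the monocytes Cebpa took 24.2% from CPM and 23.2% from the authors' normalized values, and Cebpb 40.4%, 39.7% and, without Cebpg, 46.0%. No paired analysis was possible because each group has 1 library. Gfi1, with 50 macrophage reads, has the widest interval of the 9.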
